A study of Homo sapiens with 2 samples.

Results

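The serpin genes of 2 human liver cancer lines, HepG2 and SKHEP1, are described here from 1 poly(A)-selected, stranded RNA-seq library per line. The members are the genes whose table symbol is SERPIN followed by a clade letter and a number, which 34 of 57820 listed genes met: 10 of clade A, 13 of clade B, 3 of clade E, 2 each of clades F and I, and 1 each of clades C, D, G and H. The labels call HepG2 hepatocellular carcinoma and SKHEP1, a line from an adenocarcinoma of the liver, endothelial cells. Both carry the genotype label WT, were grown in the same serum-containing medium, and are single established lines. The series asked about the long noncoding RNA PURPL, so serpins were not its stated subject.

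Serpins are proteins of a shared fold, most of which inhibit serine proteases. An inhibitory serpin exposes a reactive loop that a protease cleaves as if it were a substrate; the cut loop then slides into a sheet of the serpin and carries the protease with it, so that both are trapped. The hepatocyte secretes most serpins of blood plasma, among them inhibitors of leukocyte elastase, of clotting and of fibrinolysis, and carriers of hormones. Clade B serpins lack a classical signal peptide and act mainly inside cells.

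The HepG2 library held 22477757 expected counts, that is, reads per gene as estimated by RSEM, and the SKHEP1 library 19940557. All 8 hepatocyte markers examined were detected in HepG2 and all 8 were at 0 counts in SKHEP1, with a summed level of 43591 TPM, a length-corrected share of all transcripts, in HepG2. Mesenchymal markers summed to 60.9 TPM in HepG2 and 7026 TPM in SKHEP1, most of it VIM. Of these 8 markers, 4 were at least 4-fold higher in SKHEP1 (VIM, COL1A1, COL3A1 and THY1), and COL1A2 and FAP were under 10 counts in both lines. The other 2 leaned to HepG2, by less than 4-fold: ACTA2 had 872 counts in HepG2 against 599 in SKHEP1, and PDGFRB had 183 against 103. Of 10 endothelial markers, 7 were under 10 counts in both lines. Among these, KDR, CLDN5, ERG, EMCN and PLVAP were at 0 in both, and CDH5 had 5 counts in HepG2 against 1 in SKHEP1. The other 3 all leaned to HepG2, 1 of them by at least 4-fold. The endothelial label of SKHEP1 was thus not matched by these 10 genes. Of 8 blood and immune markers, 6 were under 10 counts in both, and LYZ had 33670 counts in HepG2 against 0 in SKHEP1. With 1 library per line, no difference below has a replicate check. Intervals are 95% limits of counting error only, and PCR copies could not be told from separate molecules.

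Most of the serpins that were detected were far apart between the lines, in both directions. Of the 34 members, 24 had at least 10 expected counts in either library and were compared. Of these, 14 (58.3%) were at least 4-fold higher in HepG2 after scaling, against 13.0% of the 15436 genes compared, and 6 (25.0%) were at least 4-fold higher in SKHEP1, against 16.5% of all genes compared. The second share is not far from that of all genes. The remaining 4 lay within 4-fold, so all but 4 of the 24 were apart in either direction, against 29.5% of all genes compared. The median log2 ratio, HepG2 over SKHEP1, was 5.85 over the 24 members and -0.03 over all genes compared. The 10 members with at least 10 counts in both lines split into 3 higher in HepG2, 3 higher in SKHEP1 and 4 within 4-fold. The other 14 entered through a single line (11 through HepG2, 3 through SKHEP1), so their gap follows in part from the count minimum. In these bulk libraries, fewer cells that express a gene and less RNA per cell cannot be told apart.

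The total and the makeup of serpin mRNA differed as well. Serpin genes summed to 9495 TPM in HepG2 and 1898 TPM in SKHEP1, a ratio of 5.00. In HepG2, SERPINA1 alone made up 71.5% of the serpin TPM, followed by SERPINF1 with 6.05% and SERPINA3 with 5.29%. In SKHEP1, SERPINE2 made up 18.4%, SERPINB6 7.81%, SERPINH1 6.38% and SERPINA1 5.03%. Clade A held 84.7% of the serpin TPM in HepG2 and 6.30% in SKHEP1, while clade B held 1.27% in HepG2 and 17.8% in SKHEP1.

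**Figure D1:**
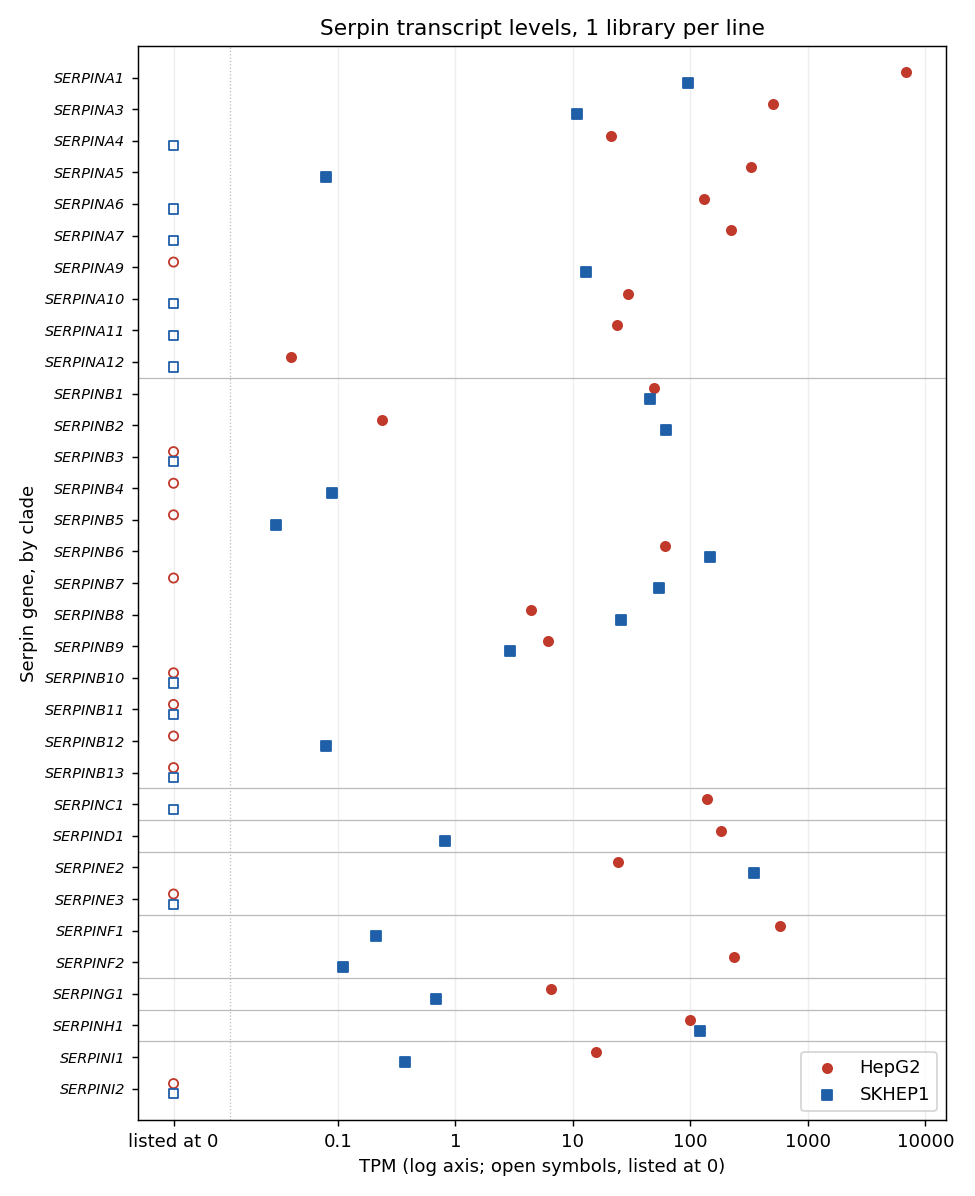
Level of 33 serpin genes in HepG2 (circles) and SKHEP1 (squares), in TPM on a log axis, grouped by clade; open symbols at the left edge are genes listed at 0. Clade A, C, D and F genes lie mostly to the right in HepG2, SERPINE2, SERPINB2 and SERPINB7 in SKHEP1, and SERPINB1 and SERPINH1 nearly coincide.

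The promoter windows of a few members are given first, to show the short motifs that were searched for in them. RefSeq promoter windows (build GRCh38.p14) existed for 27 of the 34 members, and the 250 bases before each annotated start were searched on both strands. The letters GTTAAT, a motif known from promoters of liver genes, stood in 5 of the 10 members with a window that were higher in HepG2 (SERPINA1, SERPINA4, SERPINA6, SERPINA7 and SERPINA10). They stood in 0 of 5 higher in SKHEP1, 0 of 4 within 4-fold, and 2 of 8 under 10 counts, and in 7.497% of all 27305 genes with a window. The AP-1 letters TGANTCA stood in 3 of the 5 members higher in SKHEP1 (SERPINB2, SERPINB7 and SERPINB8), 0 of the 10 higher in HepG2, 0 of 4 within 4-fold, and 5 of the 8 under 10 counts, against 8.06% of all genes. Both sets of letters thus also stood in members with few or no reads. These motifs were picked with the direction of the genes known, and a match is a description of letters, not a bound site.

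SERPINA1 has 2 annotated starts 2033 bases apart, both shown. Only the window of the downstream start holds GTTAAT (capitals), 76 bases before the start. The windows are given on the minus strand of chromosome 14, at chr14:94390636-94390885 for the upstream start and chr14:94388603-94388852 for the downstream start.
SERPINA1, upstream start: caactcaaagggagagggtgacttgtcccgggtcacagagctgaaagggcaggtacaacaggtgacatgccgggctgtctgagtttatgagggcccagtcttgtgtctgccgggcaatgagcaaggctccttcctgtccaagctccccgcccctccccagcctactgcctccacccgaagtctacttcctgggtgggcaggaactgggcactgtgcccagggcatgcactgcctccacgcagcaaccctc
SERPINA1, downstream start: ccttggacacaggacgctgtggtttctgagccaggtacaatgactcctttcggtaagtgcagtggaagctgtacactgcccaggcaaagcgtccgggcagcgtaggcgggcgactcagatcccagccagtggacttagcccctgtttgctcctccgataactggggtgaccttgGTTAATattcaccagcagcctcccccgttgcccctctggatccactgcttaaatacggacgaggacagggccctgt

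SERPINA6 (chr14:94323337-94323586, minus strand) and SERPINA7 (chrX:106038728-106038977, minus strand) carry several copies, 3 and 2, again in capitals; the last copy in SERPINA6 reads on the other strand.
SERPINA6: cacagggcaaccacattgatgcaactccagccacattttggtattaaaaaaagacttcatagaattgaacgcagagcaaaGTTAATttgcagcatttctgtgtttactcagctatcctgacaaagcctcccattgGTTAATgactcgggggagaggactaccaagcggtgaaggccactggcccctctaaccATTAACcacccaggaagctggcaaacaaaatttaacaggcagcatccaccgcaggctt
SERPINA7: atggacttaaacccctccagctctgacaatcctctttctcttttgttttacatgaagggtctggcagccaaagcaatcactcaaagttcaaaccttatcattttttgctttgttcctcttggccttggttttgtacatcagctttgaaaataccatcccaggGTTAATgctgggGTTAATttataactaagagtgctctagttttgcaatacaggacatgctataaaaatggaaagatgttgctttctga

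For the members higher in SKHEP1, the windows of SERPINB2 (chr18:63887455-63887704, plus strand) and SERPINB8 (chr18:63969831-63970080, plus strand) are shown with TGANTCA in capitals. Both also hold the TATA box letters TATAAA, as did SERPINB7, and these letters stood in 13.0% of all genes. Their place differed. In SERPINB2 they began 30 bases before the start, and in SERPINB8 142 (other strand) and 140 bases before it. In SERPINB7 they began 127 and, on the other strand, 33 bases before 1 of its starts. TATAAA also stood in 1 of the 10 members higher in HepG2 (SERPINA7), 1 of the 4 within 4-fold (SERPINB9) and 2 of the 8 under 10 counts (SERPINB12 and SERPINI2). SERPINB7 has the AP-1 letters before 2 of its 3 starts.
SERPINB2: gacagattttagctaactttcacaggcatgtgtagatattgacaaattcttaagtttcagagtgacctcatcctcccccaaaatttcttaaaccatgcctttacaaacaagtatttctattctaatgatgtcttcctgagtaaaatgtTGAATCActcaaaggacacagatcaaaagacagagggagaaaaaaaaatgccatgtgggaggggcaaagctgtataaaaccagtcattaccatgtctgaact
SERPINB8: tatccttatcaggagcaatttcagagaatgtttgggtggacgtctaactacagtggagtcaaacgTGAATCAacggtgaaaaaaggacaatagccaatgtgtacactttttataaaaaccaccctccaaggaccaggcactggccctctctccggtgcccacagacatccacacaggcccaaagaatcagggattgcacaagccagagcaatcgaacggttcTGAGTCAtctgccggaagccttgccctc

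SERPINH1, the collagen chaperone of the family, is shown with the heat shock element in capitals (GAA, TTC and GAA with 2 bases between each, here read on the other strand), at chr11:75562003-75562252 on the plus strand, before the first of its starts. It was the only member with this element, which stood in 0.557% of all genes.
SERPINH1: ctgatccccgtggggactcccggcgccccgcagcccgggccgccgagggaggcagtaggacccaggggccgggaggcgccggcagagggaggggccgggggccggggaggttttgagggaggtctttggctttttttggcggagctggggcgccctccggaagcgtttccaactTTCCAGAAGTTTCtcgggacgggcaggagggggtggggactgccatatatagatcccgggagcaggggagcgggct

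Clade A, the secreted inhibitors and hormone carriers, was nearly all on the HepG2 side. Of its 10 genes, 9 were compared; 8 were higher in HepG2, 5 of them at 0 counts in SKHEP1, and SERPINA9 was higher in SKHEP1. The clade median log2 ratio was 7.32. Of all genes compared, 13.0% were higher in HepG2 and 16.5% were higher in SKHEP1.

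SERPINA1 (ENSG00000197249.8) encodes alpha-1-antitrypsin, the main plasma inhibitor of neutrophil elastase. It had 140809 expected counts and 6786 TPM in HepG2, against 1817 counts and 95.5 TPM in SKHEP1, 70.6-fold higher in HepG2 (67.4 to 74.0). Despite that gap, SERPINA1 was the fifth most abundant of the 34 members in SKHEP1: it ranked 6 by TPM among all listed genes in HepG2 and 1722 in SKHEP1. Its isoform-weighted transcript length was 1632 bases in HepG2 and 1688 bases in SKHEP1.

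SERPINA3, or alpha-1-antichymotrypsin, an acute-phase inhibitor of cathepsin G, had 10079 counts and 503 TPM in HepG2, against 195 counts and 10.9 TPM in SKHEP1, 47.1-fold higher (40.9 to 54.5). Apart from SERPINA1 it was the only clade A gene with 10 or more counts in both lines. Its expected counts are not whole, and an overlapping gene on the same strand was listed with 83.4 counts in HepG2 and 2.4 in SKHEP1, so a small part of its reads was divided by the estimate. SERPINA5, the protein C inhibitor, had 9221 counts and 327 TPM in HepG2 against 2 counts and 0.08 TPM in SKHEP1, which gives a ratio of 4199 (1162 to 34681).

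The hormone carriers of the clade, which bind ligands and do not inhibit proteases, were seen in HepG2 alone at this depth. SERPINA7, thyroxine-binding globulin, had 4344 counts (224 TPM) in HepG2 against 0 in SKHEP1, at least 1319-fold higher in HepG2 against a floor of 3 counts per library. SERPINA6, corticosteroid-binding globulin, had 2394 counts (132 TPM) in HepG2 against 0 in SKHEP1, at least 727-fold higher. For a count of 0, the exact upper limit is 3.69 counts.

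The other HepG2-side members of the clade were lower in level. SERPINA10, the protein Z-dependent inhibitor of factor Xa, had 844 counts (29.2 TPM) in HepG2 against 0 in SKHEP1, at least 256-fold higher. SERPINA4, or kallistatin, an inhibitor of tissue kallikrein, had 527 counts (21.1 TPM) in HepG2 against 0 in SKHEP1, at least 160.0-fold higher. SERPINA11, a little-studied member, had 443 counts (23.95 TPM) in HepG2 against 0 in SKHEP1, at least 135-fold higher. SERPINA12, or vaspin, an adipokine, was at 1 count in HepG2 and 0 in SKHEP1.

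SERPINA9, a serpin known from germinal centre B cells, went the other way. It had 0 counts in HepG2 and 250 counts (13.1 TPM) in SKHEP1, at least 91.5-fold higher in SKHEP1. It was the only gene of clade A with reads in SKHEP1 and none in HepG2.

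Outside clade A, the inhibitors of clotting and fibrinolysis went in both directions. SERPINC1, SERPIND1 and SERPINF2 were likewise higher in HepG2, while SERPINE2 and SERPINB2, given below, were higher in SKHEP1. SERPINC1, or antithrombin, the heparin-dependent inhibitor of thrombin and factor Xa, had 2753 counts (139.7 TPM) in HepG2 against 0 in SKHEP1, at least 836-fold higher. SERPIND1, or heparin cofactor II, another thrombin inhibitor, had 5846 counts (181 TPM) in HepG2 against 23 counts (0.81 TPM) in SKHEP1, 232-fold higher (154 to 366). SERPIND1 lies opposite PI4KA on the other strand, which had 2023 counts in HepG2 and 2159 in SKHEP1; the strand setting of the counting is not known here, so the low SKHEP1 value in particular is uncertain.

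Both clade F genes were abundant in HepG2 and nearly absent from SKHEP1. SERPINF2, or alpha-2-antiplasmin, the main inhibitor of plasmin, had 7130 counts (237 TPM) in HepG2 against 3 counts (0.11 TPM) in SKHEP1, which gives a ratio of 2165 (740.4 to 10499.7). SERPINF1, pigment epithelium-derived factor, which does not inhibit proteases and is known to restrain vessel growth, had 9776 counts (575 TPM) in HepG2 against 1 count (0.21 TPM) in SKHEP1, a ratio of 8904 (1598 to 351742). By TPM its ratio was 2737, since the length assigned to it was 1373 bases in HepG2 and, from 1 count, 573 bases in SKHEP1. It had the second highest TPM of the 34 members in HepG2.

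SERPING1 and SERPINI1 were also higher in HepG2, at modest levels. SERPING1, the C1 inhibitor of complement and of the contact system, had 149 counts (6.5 TPM) in HepG2 against 9 counts (0.68 TPM) in SKHEP1, 15.1-fold higher (7.73 to 33.6). SERPINI1, or neuroserpin, an inhibitor of tissue plasminogen activator known from neurons, had 340 counts (15.8 TPM) in HepG2 against 3 counts (0.37 TPM) in SKHEP1, which gives a ratio of 103 (35.0 to 503). On the TPM scale their ratios were smaller, 9.56 for SERPING1 and 42.6 for SERPINI1, because TPM divides by length. The isoform-weighted length of SERPING1 was 1781 bases in HepG2 and 1240 bases in SKHEP1, and that of SERPINI1 was 1687 and 824 bases. These SKHEP1 lengths rest on only 9 counts for SERPING1 and 3 for SERPINI1. SERPINI2, a pancreatic serpin, was at 0 in both lines.

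Clade E holds inhibitors of plasminogen activators and thrombin around cells. SERPINE2, or protease nexin 1, which inhibits thrombin and urokinase, had 677 counts (24.1 TPM) in HepG2 against 8655 counts (349 TPM) in SKHEP1, 14.04-fold higher in SKHEP1 (13.0 to 15.2). It ranked 5578 by TPM among all listed genes in HepG2 and 399 in SKHEP1. SERPINE3 was at 0 in both.

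**Figure D2:**
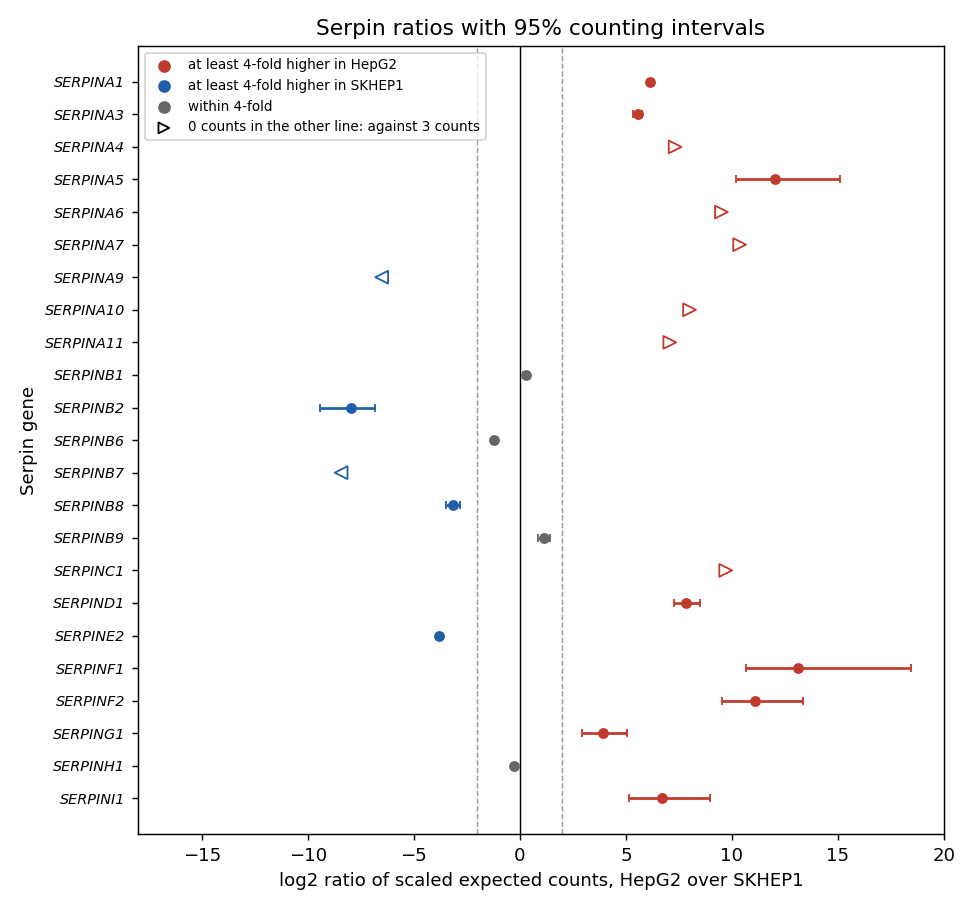
Log2 ratio of scaled expected counts, HepG2 over SKHEP1, for 23 serpins with at least 10 counts in either library; bars are 95% counting intervals, open triangles are genes at 0 in the other line set against 3 counts, genes with 1 to 3 counts are at their raw ratio, and dashed lines mark 4-fold. Red genes (14) lie right of the dashed lines, blue genes (5) left, and the 4 grey genes between.

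Clade B, the intracellular serpins, had no member at least 4-fold higher in HepG2. Of its 13 genes, 7 were under 10 counts in both lines. Of the 6 compared, 3 were higher in SKHEP1 and 3 lay within 4-fold, with a median log2 ratio of -2.19. The shares of all genes compared were 13.0% higher in HepG2, 16.5% higher in SKHEP1 and 70.5% within 4-fold. With 6 genes compared, 0 higher in HepG2 is thus not far from the share of all genes.

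The SKHEP1-side members of clade B were SERPINB2, SERPINB7 and SERPINB8. SERPINB2, plasminogen activator inhibitor 2, had 6 counts (0.24 TPM) in HepG2 against 1365 counts (62.3 TPM) in SKHEP1, 249.8-fold higher in SKHEP1 (114 to 682). SERPINB7, or megsin, known from kidney mesangium and skin, had 0 counts in HepG2 and 942 counts (54.2 TPM) in SKHEP1, at least 345-fold higher in SKHEP1. SERPINB8, an inhibitor of furin, had 91 counts (4.45 TPM) in HepG2 against 740 counts (25.6 TPM) in SKHEP1, 8.93-fold higher in SKHEP1 (7.17 to 11.2). By TPM the SERPINB8 gap was 5.75-fold, because its isoform-weighted length was 1612 bases in HepG2 and 2467 bases in SKHEP1. Its SKHEP1 count is not whole, and HMSD, which overlaps it on the same strand, had 0 counts in HepG2 and 43.6 in SKHEP1, so reads were divided between them.

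The members within 4-fold were 3 clade B genes and SERPINH1. SERPINB1, an inhibitor of neutrophil serine proteases, had 1186 counts (49.2 TPM) in HepG2 and 895 counts (45.3 TPM) in SKHEP1, 1.21-fold higher in HepG2 (1.11 to 1.32). SERPINB6, a broadly expressed cytoplasmic inhibitor, had 1060 counts (60.4 TPM) in HepG2 and 2264 counts (148 TPM) in SKHEP1, 2.34-fold higher in SKHEP1 (2.18 to 2.52). SERPINB9, the granzyme B inhibitor, had 348 counts (6.14 TPM) in HepG2 and 145 counts (2.9 TPM) in SKHEP1, 2.19-fold higher in HepG2 (1.80 to 2.67). These gaps exceed counting error, but no replicate shows how far cultures of 1 line differ.

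SERPINH1, or HSP47, a chaperone of the endoplasmic reticulum that binds procollagen and does not inhibit proteases, was at similar levels in both lines. It had 2813 counts (98.9 TPM) in HepG2 and 3118 counts (121 TPM) in SKHEP1, 1.22-fold higher in SKHEP1 (1.16 to 1.28). SERPINB1 and SERPINH1 were the only members compared that lay within 2-fold.

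The other 10 members were below 10 counts in both lines, and 6 of these were at 0 in both. SERPINB3, SERPINB10, SERPINB11 and SERPINB13, with SERPINE3 and SERPINI2, had no counts at all. SERPINB4, SERPINB5 and SERPINB12 had 0 counts in HepG2 and 1 in SKHEP1. Several of these are squamous epithelial genes, such as SERPINB3 and SERPINB4 (squamous cell carcinoma antigens, near-identical copies whose reads could be divided) and SERPINB5 (maspin). Of 8 keratinocyte and squamous markers, 7 were under 10 counts in both lines; IVL had 0 counts in HepG2 and 16 in SKHEP1.

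Along the chromosomes, neighbouring members shared a call in some clusters and not in others. In the RefSeq order (GRCh38.p14) 9 of the clade A members stand in a cluster on chromosome 14, from SERPINA10 to SERPINA3. Of these 9, 7 were higher in HepG2, SERPINA12 was under 10 counts, and SERPINA9, between SERPINA11 and SERPINA12, was higher in SKHEP1. On chromosome 18, 10 clade B members stand together; SERPINB7, SERPINB2 and SERPINB8, towards one end, were higher in SKHEP1, and the other 7, with SERPINB10 between SERPINB2 and SERPINB8, were under 10 counts. On chromosome 6, SERPINB1, SERPINB9 and SERPINB6 were all within 4-fold, as were 70.5% of all genes compared. The 2 clade F members on chromosome 17 were both higher in HepG2. On chromosome 3, SERPINI1 was higher in HepG2 and SERPINI2 was under 10 counts. Neighbouring genes are not independent, so the counts on chromosomes 14, 18 and 6 describe 3 loci and not 22 separate genes.

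**Figure D3:**
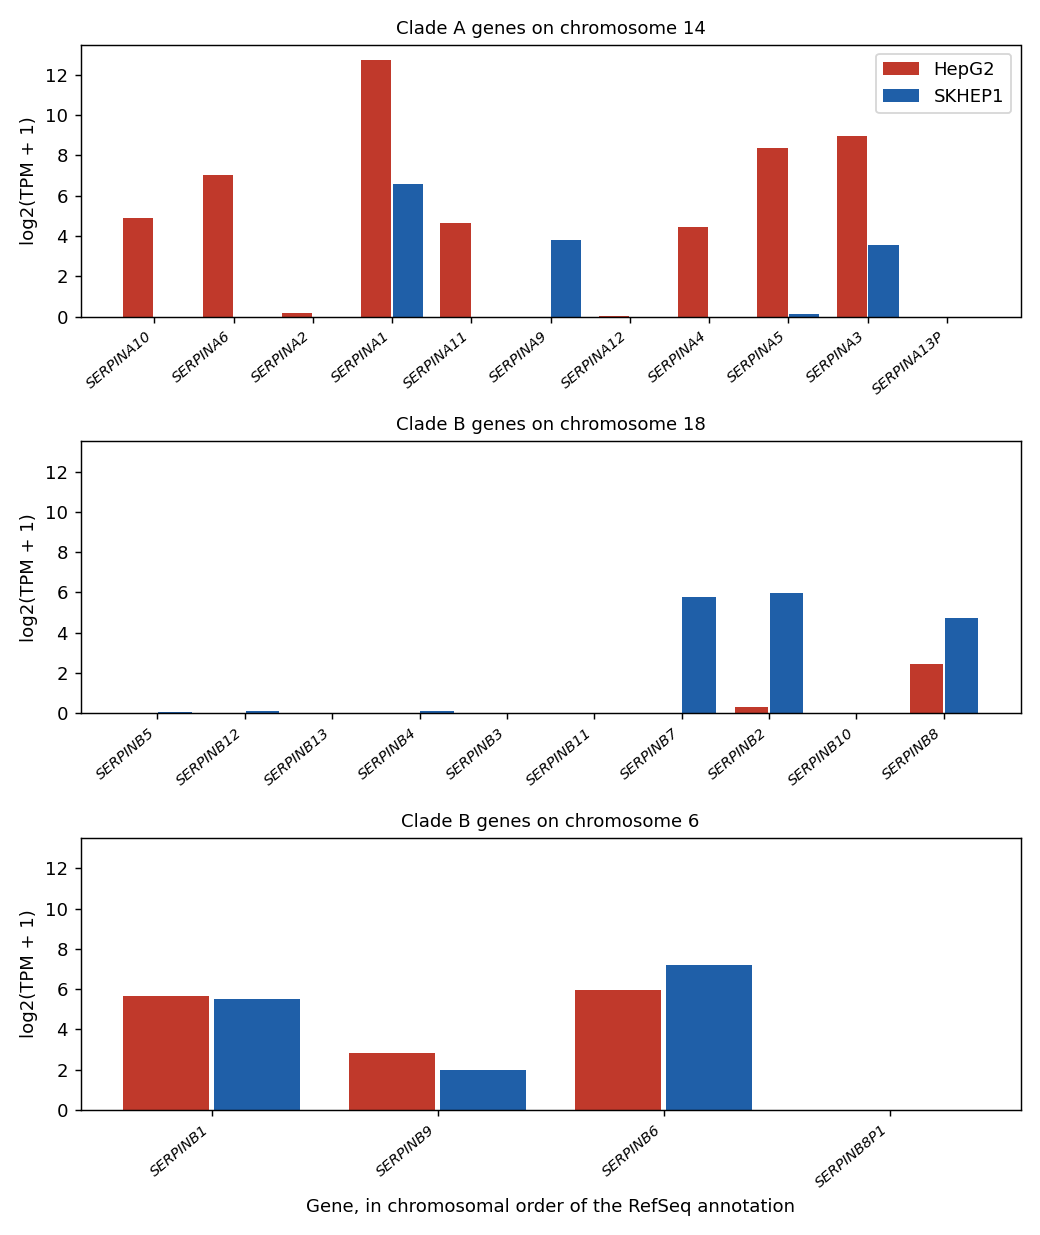
Level of each gene as log2(TPM + 1), HepG2 left and SKHEP1 right of each pair, in chromosomal order within 3 serpin clusters, with the pseudogenes SERPINA2, SERPINA13P and SERPINB8P1 included. HepG2 bars are the taller for all detected clade A genes on chromosome 14 except SERPINA9, SKHEP1 bars for SERPINB7, SERPINB2 and SERPINB8 on chromosome 18, and the pairs on chromosome 6 are close.

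The proteases that serpins inhibit were next set beside them, from lists written with earlier results of these data known. Of all genes compared, 13.0% were higher in HepG2, 16.5% were higher in SKHEP1 and 70.5% lay within 4-fold. The counts of this list and the later ones are to be read beside these shares. As with the serpins, list genes that entered through a single line have a gap that follows in part from the count minimum. Of 11 coagulation and fibrinolysis proteases, 9 were compared. Of these, 6 were higher in HepG2, 2 were higher in SKHEP1 and 1 lay within 4-fold. F2, or prothrombin, the zymogen of the thrombin that SERPINC1 and SERPIND1 inhibit, had 7586 counts in HepG2 against 1 in SKHEP1, which gives a ratio of 6910 (lower limit 1239.8), or 3242 by TPM. F10, or factor X, had 704 counts in HepG2 and 26 in SKHEP1, 24.7-fold higher (16.7 to 38.0). PROC, or protein C, target of SERPINA5 once activated, had 1374 and F11 691 counts in HepG2, and both were at 0 in SKHEP1. PLG, or plasminogen, whose product plasmin SERPINF2 inhibits, had only 37 counts in HepG2 and 0 in SKHEP1, a level of 1.06 TPM in HepG2 beside 237 TPM of SERPINF2.

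The plasminogen activators were higher in SKHEP1, while the serpins that can inhibit them went in both directions. Of these inhibitors, SERPINE2 and SERPINB2 were higher in SKHEP1. SERPINI1, also an inhibitor of tissue plasminogen activator, went the other way, with 340 counts in HepG2 against 3 in SKHEP1. SERPINA5 went the other way as well, with 9221 counts in HepG2 against 2 in SKHEP1. PLAT, tissue plasminogen activator, had 26 counts (0.81 TPM) in HepG2 against 30647 counts (990.3 TPM) in SKHEP1, 1294-fold higher in SKHEP1 (883 to 1981). PLAU, urokinase, had 78 counts (2.54 TPM) in HepG2 against 13307 counts (499.7 TPM) in SKHEP1, 187-fold higher in SKHEP1 (150.0 to 237). The urokinase receptor PLAUR had 33 counts in HepG2 and 1589 in SKHEP1, 52.9-fold higher in SKHEP1 (37.5 to 77.1). In SKHEP1 the level of SERPINE2 (349 TPM) lay below that of PLAU (499.7 TPM), while in HepG2 SERPINE2 (24.1 TPM) lay above PLAU (2.54 TPM).

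Receptors and cofactors split in both directions. Of 10, 9 were compared; 2 were higher in HepG2, 3 were higher in SKHEP1 and 4 lay within 4-fold. VTN, or vitronectin, an adhesive plasma protein made by the liver, had 4321 counts in HepG2 and 30 in SKHEP1, 131-fold higher in HepG2 (91.8 to 195). PROZ, or protein Z, the cofactor of SERPINA10, had 66 counts in HepG2 against 0 in SKHEP1, at least 20.04-fold higher. THBD, or thrombomodulin, the thrombin receptor of endothelium, had 0 counts in HepG2 against 117 in SKHEP1, at least 42.8-fold higher in SKHEP1. VLDLR, another receptor of the same family as LRP1, had 69 counts in HepG2 against 318 in SKHEP1, 5.06-fold higher in SKHEP1 (3.89 to 6.66). LRP1, the endocytic receptor that clears serpin-protease complexes, had 6850 counts in HepG2 and 3649 in SKHEP1, 1.71-fold higher in HepG2 (1.64 to 1.78).

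Other target proteases were sparse or mixed. Of 19 serine proteases of neutrophils, mast cells, lymphocytes and tissues, 13 were under 10 counts in both lines; ELANE, PRTN3, CTSG and GZMB, targets of SERPINA1, SERPINA3, SERPINB1 and SERPINB9, were at 0 in both. None of the 6 compared reached 10 counts in both lines. The direction of each call thus follows largely from the count minimum. HepG2 was the higher line for 5, led by the hepatocyte protease HPN, or hepsin (574 counts in HepG2 against 0 in SKHEP1, at least 174-fold higher). Apart from HPN, these had only 45 to 79 counts in HepG2. HTRA1, with 6 counts in HepG2 and 160 in SKHEP1, was 29.3-fold higher in SKHEP1 (13.2 to 81.0). Of 4 complement proteases, 3 were higher in HepG2: MASP1 had 517 counts in HepG2 against 0 in SKHEP1, MASP2 293 and 2, and C1S, a target of SERPING1, 714 and 145, which is 4.49-fold (3.75 to 5.40). C1R, its other C1 target, had 117 counts in HepG2 and 178 in SKHEP1, 1.67-fold higher in SKHEP1 (1.32 to 2.13). Of 6 cysteine cathepsins, 4 (66.7%) lay within 4-fold, near the 70.5% of all genes compared. Among them were CTSL, at 1275 counts in HepG2 and 1966 in SKHEP1, and CTSB, 3.62-fold higher in SKHEP1 (3.53 to 3.71). CTSH was 17.6-fold higher in HepG2 (15.0 to 20.7) and CTSS 11.1-fold higher in SKHEP1 (6.11 to 22.02). By TPM the CTSS gap was 24.4-fold, with a length of 3331 bases in HepG2 and 1692 bases in SKHEP1.

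SERPINH1 is set beside its collagen clients and the other genes of collagen folding. Of 10 collagen genes, 9 were compared and all 9 were higher in SKHEP1, against 16.5% of all genes compared. Their median log2 ratio was -9.52, and the 10 genes summed to 1.67 TPM in HepG2 and 426 TPM in SKHEP1. COL3A1 had 0 counts in HepG2 against 5765 in SKHEP1, at least 2109.8-fold higher in SKHEP1, and COL4A1 had 0 and 2005, at least 734-fold. COL6A3 had 0 counts in HepG2 against 2634 in SKHEP1, COL4A2 had 2 against 3996, and COL6A2 had 4 against 3191. COL1A1 had 7 counts in HepG2 and 958 in SKHEP1, 150.3-fold higher in SKHEP1 (72.6 to 375), while COL1A2 had 0 counts in HepG2 and only 7 in SKHEP1. All 10 genes of collagen folding and modification lay within 4-fold, as did 70.5% of all genes compared, and their median log2 ratio was -0.28. P4HA2, a prolyl hydroxylase subunit, was the furthest at 2.24-fold higher in SKHEP1 (2.08 to 2.41).

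**Figure D4:**
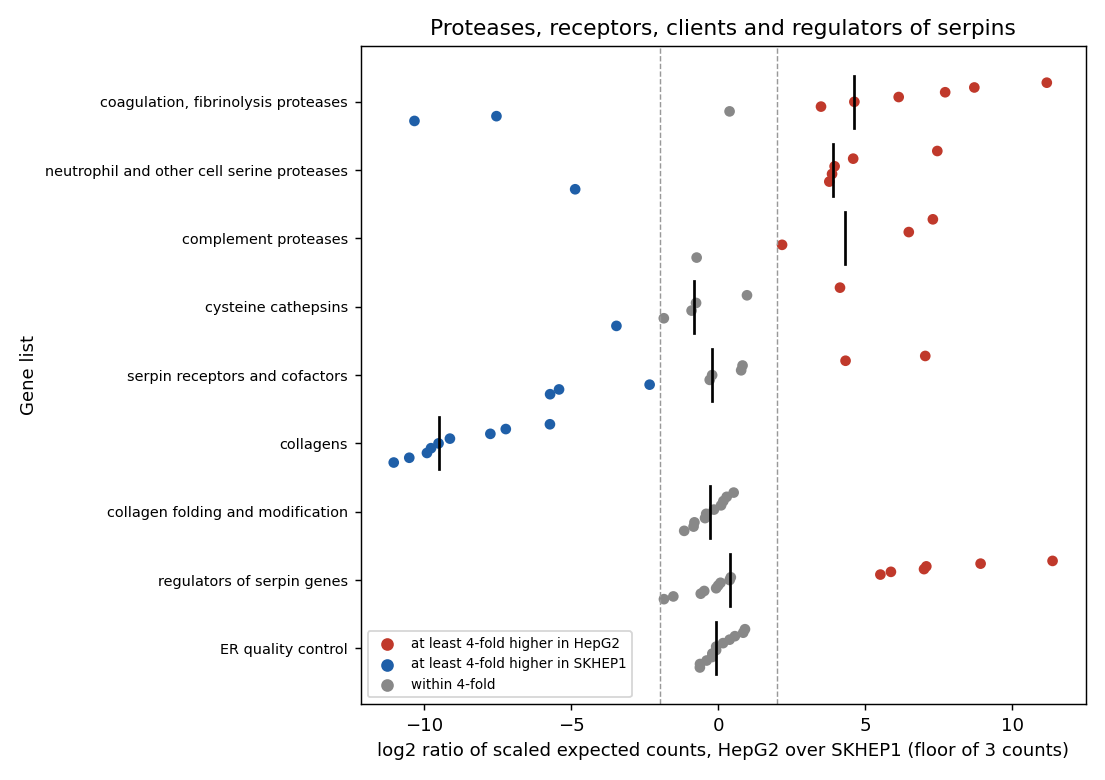
Log2 ratio of scaled expected counts, HepG2 over SKHEP1, for each gene with at least 10 counts in either library in 9 lists of serpin partners; black ticks are list medians and dashed lines mark 4-fold. Collagens all lie on the SKHEP1 side, collagen folding and endoplasmic reticulum quality control genes all lie between the dashed lines, and the regulators fall into a HepG2 group and a group within 4-fold.

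Of 16 transcription factors known to act on serpin genes, 15 were compared. Of these, 6 (40%) were higher in HepG2, 0 were higher in SKHEP1 and 9 (60%) lay within 4-fold. The shares of all genes compared were 13.0%, 16.5% and 70.5%. HNF4A had 8689 counts in HepG2 against 0 in SKHEP1, at least 2638-fold higher. FOXA2 had 443 counts in HepG2 against 0 in SKHEP1, and FOXA1 2379 and 17, which is 127-fold higher in HepG2 (79.4 to 219). HSF1, which acts through the heat shock element, had 1123 counts in HepG2 against 1028 in SKHEP1, a ratio of 0.995 (0.913 to 1.08). SMAD3, a mediator of TGF-beta signalling, was 2.89-fold higher in SKHEP1 (2.70 to 3.10). The part of these factors in the serpin differences was not tested, nor was that of the hepatocyte markers or of the 4 mesenchymal markers higher in SKHEP1.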

How the data were processed

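One poly(A) RNA-seq library per line was used, grouped by the cell line labels. The submitters' processing notes name cutadapt, STAR, RSEM, DESeq2 and the build hg19, with no versions; the annotation and strand setting are not stated. Per the file headers, the deposited tables hold RSEM expected counts (estimated counts per gene), TPM and FPKM, and other columns of isoform-weighted length. Of the genes above 0, expected counts were whole (within 1e-09) for 84.5% of 18430 in HepG2 and 85.2% of 18698 in SKHEP1.

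Rounded expected counts were divided by the TMM effective library size (edgeR 4.0.16, R 4.3.3; factors 0.987 for HepG2 and 1.01 for SKHEP1). A gene entered the comparison with 10 or more expected counts in at least 1 library, and was called higher from a ratio of 4. For this call a count under 3 was set to a floor of 3 per library. Where the lower count was 0, the ratio to the floor is given as "at least", which is no 95% limit. With 1 to 3 counts, the raw ratio is given. Ratios carry exact conditional Clopper-Pearson intervals and counts exact Poisson intervals, at 95%. Nothing was tested for significance, since no line has a replicate. The comparison was tested on simulated data that held counting error only, so this cannot show how far cultures of a line differ.

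Neighbours and promoter windows were taken by symbol from RefSeq (GRCh38.p14), and overlaps by identifier from GENCODE release 29, which matched all 34 members; no position was carried over to hg19. Members, gene lists, motifs and alternatives were chosen with earlier results of these data known. The rule names every member, with values from 10 counts up, and AGT; 1 member and some list genes are not reported here by name, but they stand in the counts, sums and medians. Of each list, the rule takes up to 4 genes with the largest absolute log2 ratio and at least 100 counts in either library, up to 2 that went furthest the other way, and the main known protease, client or receptor of a member. Marker genes named, and PROZ, HSF1, SMAD3, ELANE, PRTN3, CTSG and GZMB, were chosen after their values were seen. The alternatives replaced TMM by total counts or by size factors of DESeq2 1.42.0, the scaled counts by the deposited TPM or FPKM values, and the floor by a prior count of 2. Others thinned the deeper library, used a count minimum of 1 or 50 or a limit of 2-fold or 8-fold, or asked that the counting limit pass 4-fold. Scripts ran in Python 3.11.15 (scipy 1.17.1, numpy 2.4.6, pandas 2.3.3; figures in matplotlib 3.10.9).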

Additional observations from a re-analysis of the deposited data

How the results depend on the processing

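No serpin changed side or crossed the 4-fold limit under the 6 alternatives of scaling, floor or depth (total counts, DESeq2 size factors, TPM, FPKM, prior count, thinning), and none changed sign. With TPM or FPKM, 7 of the 24 members moved beyond their counting interval, among them SERPINB8 (log2 ratio -2.52 from TPM against -3.16) and SERPINF1 (9.85 against 11.54, both with the floor); the change is in the length each estimate divides by. With a minimum of 1 count the members within 4-fold numbered 8 instead of 4 and the median log2 ratio was 2.52 instead of 5.85, because genes of 1 count are set to the floor. With a limit of 2-fold, 2 members lay within it, and 1 clade B gene (SERPINB9) was higher in HepG2 instead of 0. The counts of list genes at least 4-fold apart, 32 higher in HepG2 and 19 higher in SKHEP1, stayed within 1.5 times under every alternative. No paired analysis was possible because each line has 1 library. Depth limits genes at 0: the exact upper limit of 3.69 counts leaves low expression possible.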

Other observations

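AGT, angiotensinogen, is a serpin by structure whose symbol keeps it out of the members. It had 20365 counts (673 TPM) in HepG2 against 0 in SKHEP1, at least 6183-fold higher in HepG2, and ranked 196 by TPM among all HepG2 genes, above SERPINF1 at 227. Of the listed serpin pseudogenes, SERPINA2P had 1 count in HepG2 and 0 in SKHEP1, and SERPINA13P, SERPINB8P1 and SERPINH1P1 were at 0 in both.

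The genes that fold and discard secreted glycoproteins in the endoplasmic reticulum, the route that handles misfolded alpha-1-antitrypsin, were even between the lines although SERPINA1 was not. All 12 lay within 4-fold, as did 70.5% of all genes compared. Their median log2 ratio was -0.08, and they summed to 3081 TPM in HepG2 and 3230.3 TPM in SKHEP1. The cargo receptor LMAN1 was 1.87-fold higher in HepG2 (1.80 to 1.95), the ubiquitin ligase SYVN1 1.79-fold (1.61 to 2.00), and the lectin OS9 1.55-fold higher in SKHEP1 (1.49 to 1.61).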
